A study of Mus musculus with 5 samples.

Results

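The genes described here are 8 Toll-like receptor genes (Tlr1, Tlr2, Tlr3, Tlr4, Tlr6, Tlr7, Tlr9 and Tlr13), the co-receptor gene Cd14 and the adaptor gene Myd88, 10 of the 51912 genes in the series. They were chosen by symbol, and all 10 were among the 17420 genes with an adjusted p-value. RNA was sequenced from C57BL/6 mice (C57BL/6J in another label of the same samples), as 2 sham-operated and 3 stroke libraries, with no transgene or deleted gene named in either group. The sources used here do not say what the sham operation consisted of. In the stroke model a coated filament closed the middle cerebral artery for 30 minutes under ketamine and xylazine. Animals entered the study when cerebral blood flow had dropped by at least 80%, and movement was scored after 24 hours. The sources used here do not give the tissue taken, the time of sampling, the age and sex of the mice or whether a library came from 1 animal or a pool, so p-values measure the spread between these libraries.

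Toll-like receptors recognise microbial molecules and molecules released by damaged cells. Tlr1, Tlr2, Tlr4 and Tlr6 act at the cell surface, and Tlr3, Tlr7, Tlr9 and Tlr13 sense nucleic acids in endosomes. CD14 hands lipopolysaccharide to TLR4 and also assists TLR2, and MyD88 is the adaptor that links the receptors here except TLR3 to NF-kB. In the brain most of these genes are expressed mainly by microglia and other macrophages, and in bulk tissue a change in the number of such cells and a change in RNA per cell cannot be told apart.

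Values per library are whole reads recovered from the deposited summary values and divided by the library's size factor, called normalized reads below. The size factors were 1.16, 1.13 and 1.12 for stroke libraries 1, 2 and 3, numbered in that order, and 0.945 and 0.734 for the sham libraries, called the deeper and the shallower. Where library values follow each other they stand in this order. Nothing ties these libraries to the replicate numbers of the labels, and the sources used here do not give total reads per library. Fold changes are stroke over sham. A gene is said to have risen only when its adjusted p in the authors' deposited table, from a DESeq2 Wald test over all genes, was below 0.05. Markers of neurons such as Snap25, Syt1 and Map2 had means of 65803, 52053 and 42550 in the authors' deposited table. The deeper sham library stood apart in choroid plexus markers, which summed to 2380 normalized reads there over 9 genes, against 248 in the shallower and 429 to 489 in the stroke libraries. Of 10 choroid plexus markers 2, Ttr and Folr1, were called lower in stroke. Whether this bears on the genes below was not tested.

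Cd14 alone rose among the 10 genes, and none fell. Of all genes tested, 0.775% were called higher in stroke and 0.786% lower, or 1.56% in either direction. The log2 fold changes were positive for 9 of the 10 genes, against 47.2% of all tested genes, and their median was 0.50 against -0.02 over all tested genes in the authors' deposited table. An unadjusted p below 0.05 was reached by Cd14, Tlr2 and Tlr9, 3 of 10 genes, against 10.5% of all tested genes. The same 3 genes were higher in every stroke library than in both sham libraries, an order that 9.96% of the 6092 recovered and tested genes showed. In the other 7 genes the groups overlapped. With 3 libraries against 2, an exact permutation test of a single gene that doubles the one-sided p cannot give a p below 0.2.

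**Figure D1:**
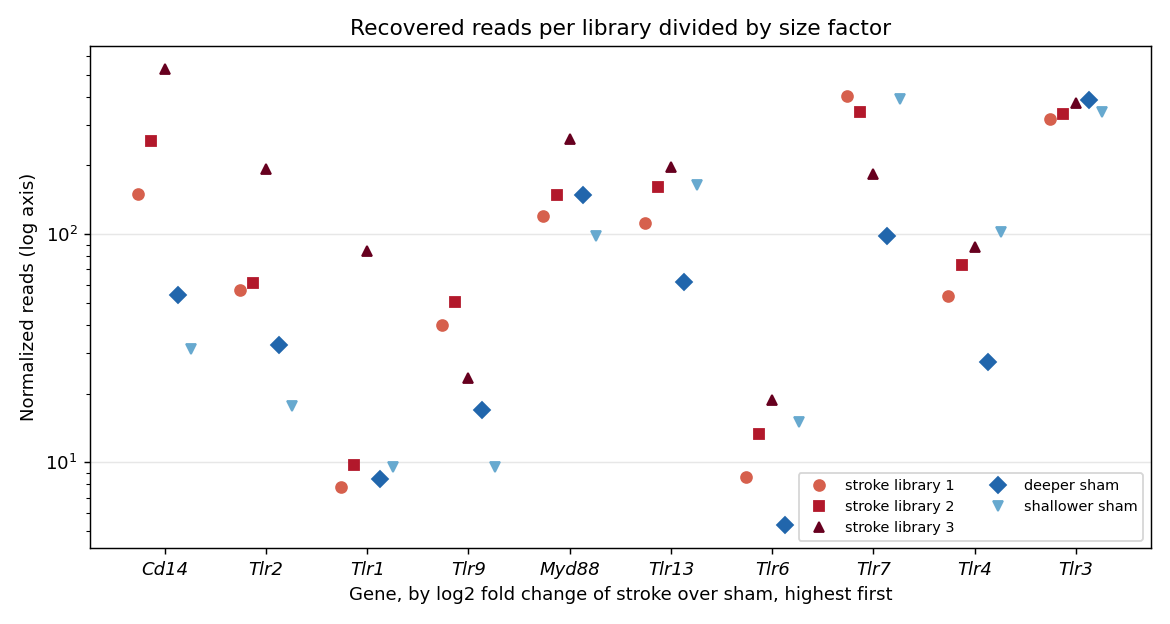
Normalized reads (log axis) of each gene in the 3 stroke libraries (red) and the 2 sham libraries (blue), with genes ordered by log2 fold change. All stroke points lie above both sham points for Cd14, Tlr2 and Tlr9, and the shallower sham library lies well above the deeper one for Tlr13, Tlr6 and Tlr4, and for Tlr7 in the set of reads taken.

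Cd14 encodes a surface protein without a signalling domain of its own (ENSMUSG00000051439, chromosome 18, 36725067 to 36726798, minus strand, GRCm38). It had 150, 255 and 530 normalized reads in stroke libraries 1, 2 and 3, while the deeper sham library had 54.0 and the shallower 31.3. The lowest stroke library was thus above both sham libraries, and the stroke libraries themselves were spread over a wide range, with a mean of 311 ± 197 (SD, n = 3). The log2 fold change of Cd14 in the authors' deposited table was 2.86 (SE 0.56, adjusted p = 0.000168), or 7.26-fold. That call held against a fold of 1.5. It was lost with limma on the recovered reads (log2 fold change 2.70, adjusted p = 0.551), a test that called 1 of 6092 genes (0.0164%), or 0.00991% of genes with no filter on low values. Without the deeper sham library limma called Cd14 (adjusted p = 0.0071) along with 19.7% of all genes, and without any 1 of the other libraries it did not (adjusted p from 0.0849 to 0.989). Leaving out the shallower sham library called 2.2% of genes, and leaving out a stroke library called 0 genes by limma, with 175 to 352 at an unadjusted p below 0.05.

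No other gene of the lipopolysaccharide route examined here passed the test. Tlr4, the receptor itself (ENSMUSG00000039005, chromosome 4, 66827584 to 66930284, plus strand), had 53.6, 73.4 and 87.8 normalized reads after stroke, while the deeper sham library had 27.5 and the shallower 102. The highest and the lowest value of Tlr4 were both sham libraries. Its log2 fold change in the authors' deposited table was 0.15 (SE 0.61, adjusted p = 0.988), with a 95% interval from -1.05 to 1.35. The difference between the Cd14 and Tlr4 fold changes was not tested. Ly96, which encodes the MD-2 subunit that binds lipopolysaccharide, stood at -0.69 on the log2 scale in the authors' deposited table (SE 0.77, adjusted p = 0.902). Lbp, the lipopolysaccharide-binding protein gene, stood at -1.05 there, in the authors' deposited table (SE 0.40, adjusted p = 0.207). Lbp had 60.5, 93.7 and 96.7 normalized reads after stroke and 207 and 139 in sham, so its groups did not overlap, with stroke lower. That order was found in 16.9% of the recovered and tested genes.

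Tlr2, the receptor for bacterial lipopeptides, forms heterodimers with the products of Tlr1 and Tlr6. Tlr2 (ENSMUSG00000027995, chromosome 3, 83836272 to 83841767, minus strand) had 57.0, 61.0 and 192 normalized reads after stroke and 32.8 and 17.7 in sham. Stroke library 3 was far above the other stroke libraries, and these in turn were above both sham libraries. The log2 fold change of Tlr2 in the authors' deposited table was 2.02 (SE 0.68, adjusted p = 0.117), which did not pass. With limma it passed without the deeper sham library (log2 fold change 2.24, adjusted p = 0.0374), a setting that called 19.7% of genes, and it was 1.25 without stroke library 3 (adjusted p = 0.784).

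Tlr1 (ENSMUSG00000044827, chromosome 5, 64924679 to 64933563, minus strand) had its excess in 1 library. It had 7.78 and 9.72 normalized reads in stroke libraries 1 and 2, 84.2 in stroke library 3, and 8.47 and 9.54 in the sham libraries. Of the 5 libraries, 4 held 7 to 11 reads each, and the other held 94. The log2 fold change of Tlr1 in the authors' deposited table was 1.91 (SE 1.13, adjusted p = 0.599), and it turned to -0.04 with limma without stroke library 3 (adjusted p = 0.993). Stroke library 3 had 9.62 times the mean of the other stroke libraries for Tlr1, a ratio that 0.168% of 5964 recovered genes reached. Tlr6, its neighbour on chromosome 5 (ENSMUSG00000051498, 64952031 to 64960097, minus strand), had 8.64, 13.3 and 18.8 normalized reads after stroke and 5.29 and 15.0 in sham. The groups of Tlr6 overlapped, and its log2 fold change in the authors' deposited table was 0.44 (SE 0.96, adjusted p = 0.961).

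Tlr1 and Tlr6 are close copies of each other, and their coding sequences share long identical stretches. The longest run is 229 bases, at coding bases 1468 to 1696 of Tlr1 and 1507 to 1735 of Tlr6, counted from the A of the start codon, and it is shown because reads inside it fit both genes.
Tlr1 and Tlr6 shared run: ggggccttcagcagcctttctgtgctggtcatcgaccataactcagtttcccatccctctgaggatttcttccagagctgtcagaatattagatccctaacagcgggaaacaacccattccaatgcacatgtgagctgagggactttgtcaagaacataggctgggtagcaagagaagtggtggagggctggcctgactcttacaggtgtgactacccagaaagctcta
Of all 50-base windows of the coding sequence, 19.4% in Tlr1 and 19.2% in Tlr6 occurred in the other gene, in the GENCODE M21 transcripts on GRCm38. No other pair among the 10 genes shared a 50-base window. The sources used here do not say how reads with several alignments were treated, so the split of reads between these 2 genes is uncertain, though the excess in stroke library 3 was in Tlr1 (94 reads) and not in Tlr6 (21 reads).

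**Figure D2:**
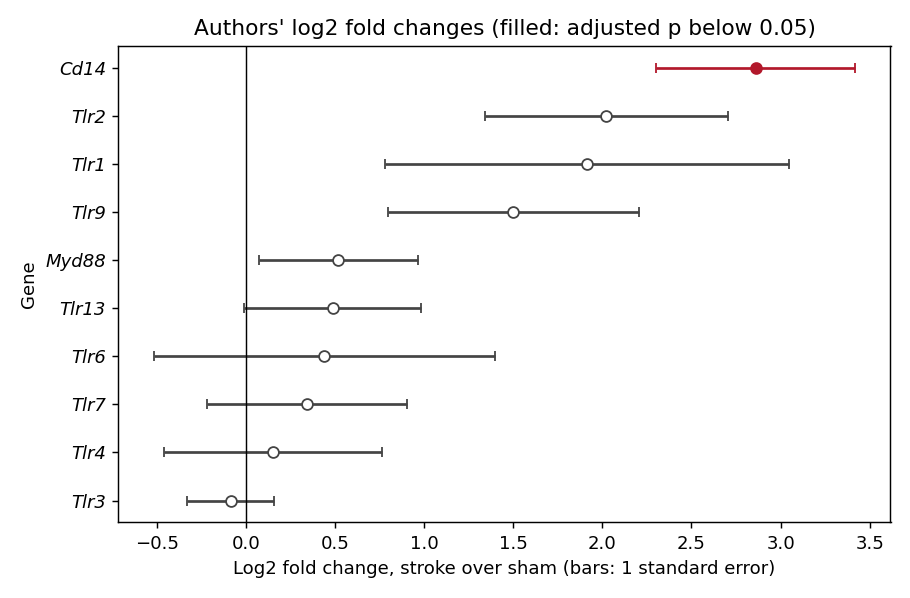
The authors' log2 fold change, stroke over sham, on the horizontal axis (bars of 1 standard error) and each gene on the vertical axis. Only Cd14, at 2.86, is filled as called, and Tlr1, at 1.91, has the widest bar.

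The endosomal receptors differed in how they were spread over the libraries. Tlr9, which recognises unmethylated CpG DNA (ENSMUSG00000045322, chromosome 9, 106222598 to 106226883, plus strand), had 39.8, 50.4 and 23.3 normalized reads after stroke and 16.9 and 9.54 in sham. Every stroke library was above both sham libraries, and stroke library 3, highest for Tlr2 and Cd14, was here the lowest of the stroke group. The stroke mean of Tlr9 was 37.8 ± 13.7 (SD, n = 3). Its log2 fold change in the authors' deposited table was 1.5 (SE 0.70, adjusted p = 0.399), which did not pass, and with limma it passed only without the deeper sham library (log2 fold change 1.81, adjusted p = 0.0339), where 19.7% of all genes were called.

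Tlr7, a sensor of single-stranded RNA (ENSMUSG00000044583, X chromosome, 167304929 to 167330558, minus strand), had 401, 342 and 184 normalized reads after stroke, while the deeper sham library had 98.4 and the shallower 390. These reads were 1 of 3 sets that gave the deposited values of Tlr7 within the search tolerance of 2e-05 in log2 fold change. This set was taken because it alone came within a stricter tolerance of 5e-06, though its scatter was the largest of the 3 (deviance 6.56, against 1.79 and 3.33). The other sets missed the fold change by 6.25e-06 and 9.52e-06, errors reached by 15.3% and 8.13% of genes with a single set, so the library values of Tlr7 are not settled. They give 289, 417 and 221 normalized reads after stroke with 185 and 302 in sham, or 326, 151 and 451 with 272 and 215. In all 3 sets the groups of Tlr7 overlapped. Its log2 fold change in the authors' deposited table was 0.34 (SE 0.56, adjusted p = 0.945). With limma on the set taken it was 1.57 without the shallower sham library (adjusted p = 0.0999) and -0.41 without the deeper one (adjusted p = 0.499). Tlr13, a sensor of bacterial ribosomal RNA (ENSMUSG00000033777, X chromosome, 106143204 to 106160493, plus strand), had 112, 161 and 197 normalized reads after stroke, while the deeper sham library had 61.4 and the shallower 164. The shallower sham library lay inside the stroke range of Tlr13 and the deeper one below it. The log2 fold change of Tlr13 was 0.49 in the authors' deposited table (SE 0.49, adjusted p = 0.887).

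Tlr3, the sensor of double-stranded RNA that signals through the adaptor TRIF in place of MyD88 (ENSMUSG00000031639, chromosome 8, 45395665 to 45411080, minus strand), was the most even of the 10 genes. It had 320, 337 and 376 normalized reads after stroke and 388 and 342 in sham. All 5 libraries lay close together, with a stroke mean of 344 ± 29.0 (SD, n = 3). The log2 fold change of Tlr3 in the authors' deposited table was -0.09 (SE 0.24, adjusted p = 0.977), with a 95% interval from -0.56 to 0.39. Its standard error was the smallest of the 10 genes, whose range reached 1.13 and whose median was 0.59, against a median of 0.33 over all tested genes and 0.50 over tested genes with a mean of 10 to 400. The exons of Tlr3 overlap 381 bases of Gm45542 on the opposite strand, and the sources used here do not give the strand setting of the counting. The reads of Tlr3 were 1 of 5 sets that gave the deposited values, and the other 4 had a scatter far outside the limit.

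Myd88, the shared adaptor (ENSMUSG00000032508, chromosome 9, 119335934 to 119341411, minus strand), had 120, 149 and 261 normalized reads after stroke and 148 and 98.1 in sham. The deeper sham library lay between stroke libraries 1 and 2, and stroke library 3 was the highest. The log2 fold change of Myd88 in the authors' deposited table was 0.52 (SE 0.44, adjusted p = 0.824), and with limma it was 0.15 without stroke library 3 (adjusted p = 0.931). Its exons overlap 290 bases of Acaa1a on the opposite strand.

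Of the other mouse Toll-like receptor genes, Tlr5 had an adjusted p and was not called, and the authors' deposited table puts it at 0.29 on the log2 scale (SE 0.97, adjusted p = 0.984). Tlr5, a receptor for flagellin, had 16.4, 15.9 and 7.17 normalized reads after stroke and 15.9 and 5.45 in sham. Tlr8 and Tlr12 had means of 5.21 and 7.41 and no adjusted p in the authors' deposited table. Tlr11 had no read in any library, which allows up to 3 reads in all by counting error alone.

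Levels were compared between genes as normalized reads per kilobase of exon. In sham the order was Tlr3 (70.1), Tlr7 (59.8), Myd88 (47.8), Tlr13 (26.1), Cd14 (24.6), Tlr4 (11.7), Tlr2 (8.38), Tlr9 (3.81), Tlr6 (2.72) and Tlr1 (2.69), as means of 2 libraries per kilobase. The libraries of Myd88 and Tlr13, and those of Tlr2 and Tlr9, did not overlap, while the other neighbours in this sham order did. In stroke Cd14 came first with 180 normalized reads per kilobase, from 86.3 to 306, and overlapped Tlr7, which ranged from 45.0 to 98.2. By level per kilobase Cd14 thus stood below Tlr13 in sham and above all others in stroke. Tlr2 stood at 34.3 per kilobase in stroke, just below Tlr13 (36.4), and Tlr6 was lowest at 3.64. The levels of Tlr7 are those of the set of reads taken. In the stroke order Tlr3 stood apart from Tlr13 and Tlr2 apart from Tlr4, while other neighbours overlapped. Exon lengths are from GENCODE M21, and the sources used here do not name the annotation release the authors counted with.

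Within the sham and within the stroke group the 10 genes differed in which library was higher. Tlr4, Tlr6 and Tlr13 were 2.66 to 3.71 times higher in the shallower than in the deeper sham library. A ratio of at least 2.66 was reached by 16.4% of 5964 recovered genes, and one of at least 3.71 by 11.8%. For Tlr7 that ratio was 3.96 in the set taken and 1.63 or 0.791 in the others, so its direction was not settled. Cd14, Tlr2, Tlr9 and Myd88 went the other way and were 1.51 to 1.85 times higher in the deeper library. For Myd88 and Tlr2, at the ends of this range, 70.3% and 78.2% of recovered genes had as high a ratio of shallower over deeper. Without the shallower sham library, limma gave Tlr4 and Tlr13 log2 fold changes of 1.32 and 1.30 (adjusted p = 0.131 and adjusted p = 0.112), and without the deeper one -0.54 and -0.10 (adjusted p = 0.32 and adjusted p = 0.872). Of the 10 genes, 6 were highest in stroke library 3 (with the set taken for Tlr7). The share of all recovered genes highest in that library was not counted, here or in the lists below. Cd14, Tlr2 and Tlr1 had 2.62, 3.25 and 9.62 times the mean of the other stroke libraries there. Ratios as high were reached by 2.55%, 1.31% and 0.168% of 5964 recovered genes. Tlr9 had 0.517 times the mean of the other stroke libraries, a ratio as low in 5.85% of these genes. Tlr7 had 0.494 times that mean in the set taken and 0.627 or 1.89 in the others.

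Microglia markers did not share the sham pattern of Tlr4, Tlr6 and Tlr13. All 9 microglia markers with recovered reads were higher in the deeper than in the shallower sham library. Over 5964 recovered genes the median ratio of shallower over deeper was 1.01. The 9 markers summed to 2170 normalized reads in the deeper, 918 in the shallower and 1750, 2180 and 1310 in stroke libraries 1, 2 and 3. None of 18 tested microglia markers was called, with a median log2 fold change of 0.36 in the authors' deposited table. Csf1r, a growth factor receptor of microglia, and Ctss, a lysosomal protease, stood at 0.52 (SE 0.30) and 0.22 (SE 0.25) by the log2 fold changes of the authors' deposited table. Olfml3, for example, had 341 and 109 normalized reads in the sham libraries. P2ry12, a receptor of resting microglia, had 439, 507 and 241 in stroke against 421 and 193 in sham, so that stroke library 3 was lowest of its group, as for Tlr9. None of the 9 recovered microglia markers was highest in stroke library 3 over all 5 libraries. Within the stroke group they differed. P2ry13 (61.4, 141 and 162) and Fcrls (85.6, 122 and 155) were highest in stroke library 3, below the deeper sham library (167 and 212). Siglech, Olfml3, Aif1, Selplg and Trem2 were lowest there, as P2ry12 was.

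Other macrophage and blood cell markers differed widely in level, and the sums below cover only genes with recovered reads. Border macrophage markers summed to 375, 627 and 558 normalized reads over 8 genes in stroke and 374 and 313 in sham, and none of 5 tested was called. Neutrophil markers summed to 197, 307 and 233 over 10 genes in stroke and, for sham, 309 and 154. No marker of the 5 tested was called, and Ly6g had a mean of 0.177 in the authors' deposited table, which is 1 read in 1 library. Of the infiltrating monocyte and macrophage markers, Fn1 and Vcan had means of 2917 and 1121 in the authors' deposited table and no recovered reads. The 7 with recovered reads summed to 139, 416 and 372 against 182 and 117. Thbs1 alone made up 79.8% of these reads, and the other 6 genes summed to 42.4, 60.1 and 58.2 against 49.7 and 36.8, with Ccr2 at 5.19, 8.84 and 11.6 normalized reads against 7.41 and 5.45, and none of 4 tested was called. Lymphocyte markers summed to 356, 202 and 96.7 over 3 genes against 283 and 301, but 97.9% of these reads were Cd4, and Cd3e and Cd79a together had at most 8.84 in a library, with Nkg7 at 0. Endothelial markers summed to 1080, 1320 and 1240 over 5 genes against 843 and 867. No marker was called among 1 tested for lymphocytes and 12 each for endothelium, astrocytes, neurons and oligodendrocytes. Positive log2 fold changes in the authors' deposited table were found for 11 endothelial, 3 astrocyte, 12 neuron and 1 oligodendrocyte marker of 12 each. An unadjusted Wald p below 0.05 was reached by 3 endothelial, 1 astrocyte, 1 neuron and 0 oligodendrocyte markers. The part of these cells in the values of Cd14, Tlr1 and Tlr2 was not tested. Msr1, a scavenger receptor of macrophages, had 398 normalized reads in stroke library 3, against 14.7 and 33.6 in the other stroke libraries and 37.0 and 46.3 in sham. Clec7a, the beta-glucan receptor, had 42.1 there against 1.73 and 3.54, and 13.8 and 2.73 in sham. Both had the excess in stroke library 3 that Tlr1 had. They come from the list of accessory proteins and co-receptors below and were picked after their values were seen. Of 15 recovered genes of that list, 5 were highest in stroke library 3. The same held for 1 of 7 infiltrating monocyte and macrophage, 2 of 8 border macrophage and 1 of 10 neutrophil markers. The share over all recovered genes was not counted.

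**Figure D3:**
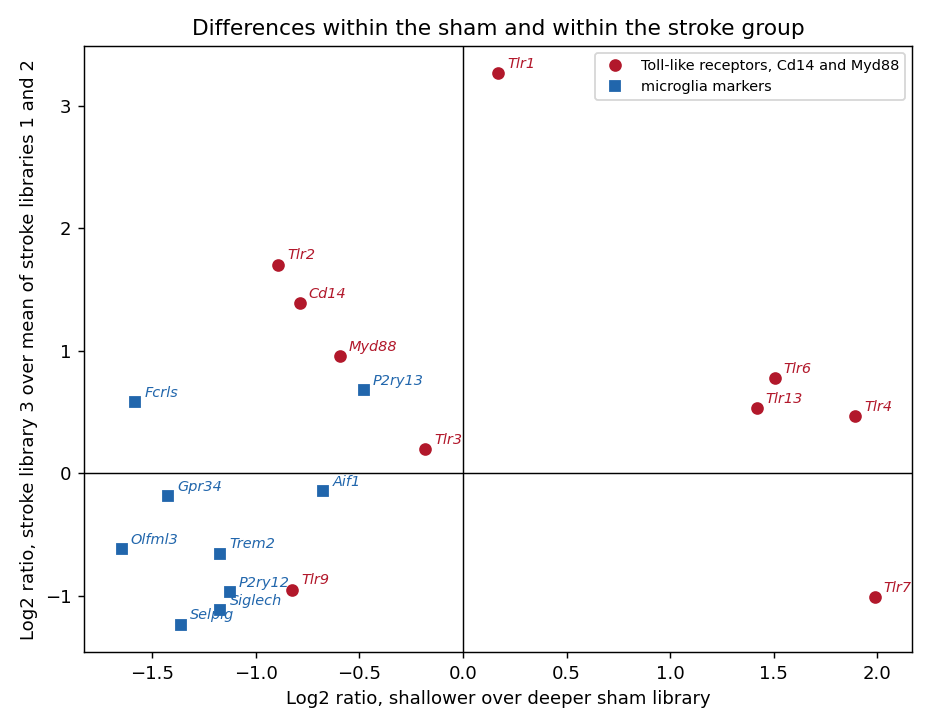
Log2 ratio of the shallower over the deeper sham library (horizontal axis) and of stroke library 3 over the mean of stroke libraries 1 and 2 (vertical axis) for the 10 genes (circles) and 9 microglia markers (squares). Tlr4, Tlr6, Tlr13 and, in the set of reads taken, Tlr7 lie to the right of 0 and all 9 microglia markers to the left, and Tlr1, Tlr2 and Cd14 lie highest.

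The genes most like Cd14 over the 5 libraries were found among 2773 genes with recovered reads and a mean of at least 20. Above a mean of 150 this pool held only the 10 genes and genes of the lists. Socs3 and Icam1 lay above 150, where no unlisted gene could be compared. Likeness was the root mean square difference of log2(normalized reads + 1), each gene centred on its own mean. Slc10a6 (0.24), Tubb6 (0.32), Bcl3 (0.39), Tnfaip2 (0.41) and Socs3 (0.43) were nearest to Cd14 by this difference. Slc10a6, a transporter gene, had 25.9, 34.5 and 67.2 normalized reads after stroke and 8.47 and 2.73 in sham. Nearest to Tlr2 were Tnfaip2 (0.12), Socs3 (0.25), Icam1 (0.26), Bcl3 (0.28) and Ccl6 (0.31) by the same difference. Tnfaip2 had 19.0, 22.1 and 75.2 normalized reads after stroke and 9.53 and 5.45 in sham, and so shared the high value in stroke library 3 of Tlr2.

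Among genes listed here as acting with or after the receptors, 15 of 99 tested rose and none fell. That is 1 of 19 accessory proteins and co-receptors, 0 of 23 adaptors and kinases, 5 of 15 transcription factors, 4 of 21 negative regulators and 5 of 21 target genes, against the 0.775% of all tested genes called higher. These lists were drawn up with earlier results of these data known. Their median log2 fold changes in the authors' deposited table were 0.61, 0.05, 0.68, 0.56 and 1.85 in that order, against -0.02 over all tested genes. Against a fold of 1.5, only Atf3 and Ccl2 of the 99 were called, where 0.0976% of all tested genes were called higher. Calls in these lists were not counted with limma or with a library left out. Over all 6092 genes that limma tested on recovered reads it called 1 (0.0164%), so the 15 calls rest on the DESeq2 Wald test.

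**Figure D4:**
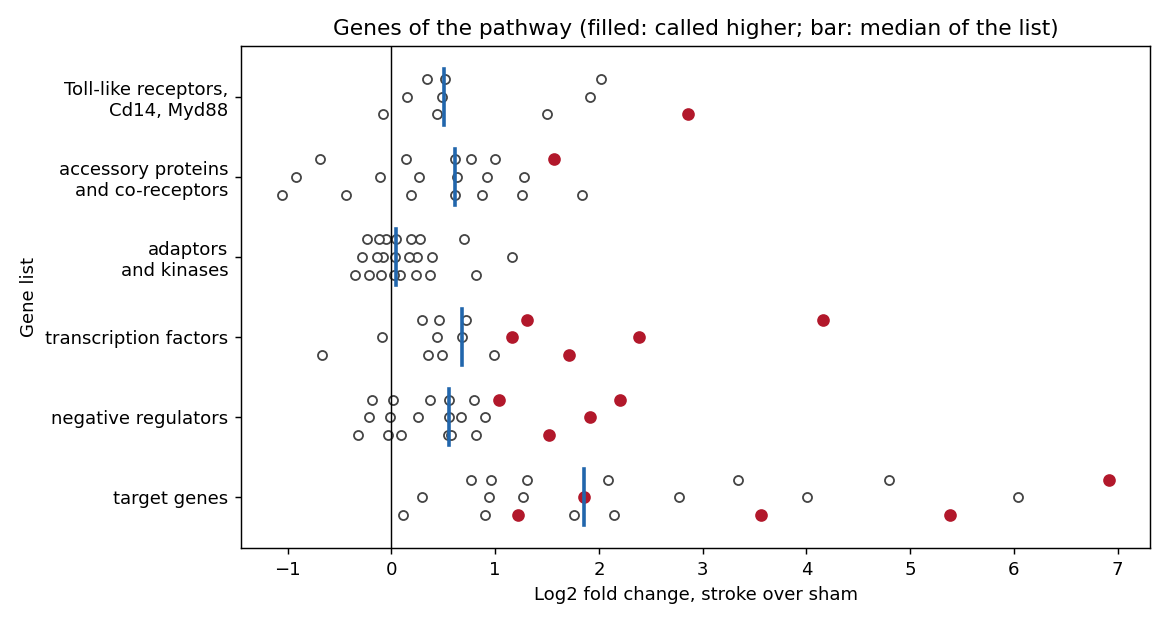
The authors' log2 fold change, stroke over sham, on the horizontal axis for each tested gene, with the lists on the vertical axis. Filled points were called higher and bars mark medians, which run from 0.05 for adaptors and kinases to 1.85 for target genes.

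No adaptor or kinase between receptor and nucleus passed the DESeq2 Wald test, and 1 of 23 had an unadjusted p below 0.05. Ube2n, the ubiquitin-conjugating enzyme that works with TRAF6, and Tab2, which binds the chains it makes, stood at 0.24 (SE 0.22) and 0.03 (SE 0.21) by log2 fold change, per the authors' deposited table. Tirap, the bridge between TLR2 or TLR4 and MyD88, had 89.0, 125 and 108 normalized reads after stroke and 81.5 and 96.7 in sham. Ticam1, which encodes the TRIF adaptor of TLR3, had 122, 186 and 133 against 196 and 150. The groups overlapped for both adaptors. Among the genes listed as accessory the called one was Lrrc32, with 254, 461 and 284 normalized reads after stroke and 115 and 109 in sham. Lrrc32 encodes a TGF-beta carrier of the leucine-rich repeat family and was placed in this list without a test of a part in Toll-like receptor signalling. The authors' deposited table puts Lrrc32 at 1.57 on the log2 scale (SE 0.36, adjusted p = 0.00398). Unc93b1, the chaperone that brings the endosomal receptors to their compartment, had 252, 286 and 247 normalized reads against 197 and 88.6, groups that did not overlap. The authors' deposited table gives Unc93b1 0.87 on the log2 scale (SE 0.39, adjusted p = 0.359), which did not pass. Hsp90b1, the chaperone that folds Toll-like receptors, and Hmgb1, a nuclear protein that can act as an endogenous ligand, stood at 0.19 (SE 0.23) and 0.77 (SE 0.91) by log2 fold change, per the authors' deposited table.

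The transcription factors that rose were Atf3, Cebpb, Fos, Relb and Jun, while the NF-kB subunit genes Rela and Nfkb1 did not pass, at 0.35 (SE 0.33) and -0.09 (SE 0.25) by the log2 fold changes of the authors' deposited table. Atf3, which can repress targets of Toll-like receptors, stood at 4.16 (SE 0.41) by the log2 fold change of the authors' deposited table and was high in all 3 stroke libraries alike, at 287, 324 and 298 normalized reads against 22.2 and 10.9. Atf3 thus lacked the excess in stroke library 3 seen for Cd14 and Tlr2. Relb, an NF-kB subunit that NF-kB itself induces, had 221, 194 and 207 against 105 and 61.3. Negative regulators that rose were Trim9, Socs3, Zfp36 and Bcl3. Socs3, an inhibitor of cytokine signalling, had 231, 311 and 574 normalized reads after stroke and 132 and 64.0 in sham, and Zfp36, which destabilises cytokine mRNA, had 263, 368 and 421 against 160 and 83.1. Cyld and Tollip, by contrast, stood at -0.04 (SE 0.29) and -0.01 (SE 0.19) by the log2 fold changes of the authors' deposited table.

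Target genes of Toll-like receptors that rose were Ccl2, Ccl3, Ccl4, Icam1 and Ptgs2, and all 21 tested targets had a positive fold change. Icam1, a leukocyte adhesion molecule, had 116, 173 and 355 normalized reads after stroke and 66.7 and 51.8 in sham. The rank order of its stroke libraries was that of Cd14 and Tlr2. Il6, with 1.73, 15.0 and 53.7 against 3.18 and 1.36, and Il1b, with 3.46, 13.3 and 44.8 against 4.23 and 5.45, had stroke library 3 highest too and did not pass (by the authors' deposited table, adjusted p = 0.319 and adjusted p = 0.592). Of 18 targets with recovered reads, 11 were highest in stroke library 3, and the share over all recovered genes was not counted. For Vcam1 and Lcn2 the authors' deposited table gives 0.11 (SE 0.23) and 0.77 (SE 0.61) on the log2 scale.

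The promoters of the genes were set beside their fold changes. Windows from 250 bases before to 50 after the start were taken from RefSeq (GRCm38.p6) for 7 of the 10 genes, with 9 windows. No window was matched for Tlr4 or Tlr7, and Cd14 was left out of this search. They were searched on both strands for a kappaB motif (GGGA, any 4 bases, then CC), an AP-1 motif (TGANTCA), a PU.1 motif (GAGGAAG) and an interferon response motif (GAAA, any 2 bases, then GAAA). Tlr2, Tlr3 and Tlr9 are shown because Tlr2 and Tlr9 were the matched genes whose stroke libraries all lay above sham and Tlr3 was the flattest, and capitals mark matches of any of the 4 motifs.
Tlr2, chr3:83841559-83841858, minus strand: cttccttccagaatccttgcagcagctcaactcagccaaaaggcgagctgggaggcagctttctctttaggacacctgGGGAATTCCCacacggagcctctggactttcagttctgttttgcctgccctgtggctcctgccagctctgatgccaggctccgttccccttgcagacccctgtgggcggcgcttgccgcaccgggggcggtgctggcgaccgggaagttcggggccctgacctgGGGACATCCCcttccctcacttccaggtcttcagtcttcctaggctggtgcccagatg
Tlr3, chr8:45410331-45410630, minus strand: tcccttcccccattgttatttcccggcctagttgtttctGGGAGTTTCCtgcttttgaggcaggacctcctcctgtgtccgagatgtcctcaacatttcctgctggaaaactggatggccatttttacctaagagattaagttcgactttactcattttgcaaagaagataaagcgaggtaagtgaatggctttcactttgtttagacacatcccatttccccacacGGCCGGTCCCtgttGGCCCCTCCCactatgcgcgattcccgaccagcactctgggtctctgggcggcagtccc
Tlr9, chr9:106222348-106222647, plus strand: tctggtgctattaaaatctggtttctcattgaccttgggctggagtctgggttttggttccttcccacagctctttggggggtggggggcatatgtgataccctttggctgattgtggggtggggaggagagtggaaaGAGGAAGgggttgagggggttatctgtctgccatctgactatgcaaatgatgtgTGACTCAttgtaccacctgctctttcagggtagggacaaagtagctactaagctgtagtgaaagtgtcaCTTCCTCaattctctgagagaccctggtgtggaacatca
Both Tlr2, with a log2 fold change of 2.02, and Tlr3, with one of -0.09, held kappaB matches, 2 and 3 in number, as did 20.7% of all 32851 promoter windows. Tlr9 held 1 AP-1 match and 2 PU.1 matches, motifs found in 7.81% and 13.6% of all windows. PU.1 matches were also found for Tlr1 and Tlr13, and matches of the interferon response motif, present in 3.44% of all windows, for Myd88 and Tlr6. The matches describe letters in these windows and nothing about binding.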

How the data were processed

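Per the labels' protocols, TRIzol followed by an RNeasy kit gave the RNA, and the libraries were stranded mRNA libraries (KAPA). Per the submitters' processing notes, FastQC, STAR 2.5.2b, featureCounts 1.5.1 and DESeq2 1.14.1 were used with GRCm38. The annotation release, the strand setting and what was done with multiply aligned reads were not stated in any source used here. The authors deposited 1 table for all 5 libraries. Per the file headers it holds the mean normalized count (a signal in units of reads over size factors), the log2 fold change and its standard error, the Wald statistic (a score), and the p-value and adjusted p-value of each gene.

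Direction was read from genes with 1 read in 1 library, whose means take 5 values, 3 with positive and 2 with negative fold changes. These also give the size factors. A search then looked for the whole reads of each library that give a gene's deposited mean and fold change, for means from 2 to 150, and up to 400 for listed genes. Of 10764 genes tried, 10091 were recovered, 88 of them chosen among several sets. On simulated data 199 of 200 genes were recovered rightly and 0 wrongly. None of them gave several sets, and the choice among sets, made for Tlr7 and Tlr3, was not tested there. Recovery above a mean of 150, where Cd14, Myd88, Tlr7 and Tlr3 lie, was not tested separately. Recovery assumes that the deposited fit was made on these whole counts, and libraries cannot be tied to replicate numbers.

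Calls are the authors' DESeq2 Wald test with Benjamini-Hochberg adjustment (adjusted p below 0.05). Alternatives used limma 3.58.1 with trend (R 4.3.3) on log2(normalized reads + 1) over 6092 recovered genes, in Python 3.11.15 with numpy 2.4.6, scipy 1.17.1 and numba 0.67.0. On data simulated for this comparison (6092 genes), limma called 0% of genes changed 2-fold, 52% at 4-fold, 82% at 8-fold and 94% at 16-fold. The simulation drew each gene's reads independently and held no difference between libraries of a group that many genes share. These shares therefore cannot be carried over to the real libraries, where limma called 1 of 6092 genes. Intervals are 1.96 standard errors.

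The genes and lists were chosen with earlier results of these data known. Named were the 10 genes, the called genes of each list (up to 6) and its 2 uncalled genes of highest mean, the 4 other receptor genes, up to 3 markers a list by mean, and the 5 genes most like Cd14 and Tlr2. Ly96, Lbp, Unc93b1, Tirap, Ticam1, Msr1, Clec7a, Il6, Il1b, P2ry12, Olfml3, Ccr2, Thbs1, Cd4, Cd3e, Cd79a and Ly6g were named after their values were seen. So were P2ry13, Fcrls, Siglech, Aif1, Selplg and Trem2. A result that this rule would name is not reported here.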

Additional observations from a re-analysis of the deposited data

How the results depend on the processing

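Cd14 alone of the 10 genes was called with p adjusted over every gene with a p-value, over genes whose mean reached 132 (5 of the 10 kept), against a fold of 1.5 and with the median fold change subtracted. With limma on recovered reads 0 were called, also with a pseudocount of 0.5, with no filter and scaled to the sum of recovered reads. At an unadjusted p below 0.05 limma gave 488 genes in all. Leaving out each library in turn gave 0 to 3 of the 10 genes, with 3 (Cd14, Tlr2 and Tlr9) without the deeper sham library, a setting that called 19.7% of all genes (0 to 2.2% without each other library) and where 1 sham library is assumed to vary like the others. Of the pathway genes 2 were called against a fold of 1.5 (0.0976% of all genes), in place of 15 (0.775%), and their calls with limma were not counted. Over these libraries left out, log2 fold changes ran from 2.22 to 3.13 for Cd14, 1.25 to 2.24 for Tlr2 and 1.05 to 1.81 for Tlr9, and changed sign for Tlr1 (-0.0418 to 1.60), Tlr3 (-0.18 to 0.0063), Tlr4 (-0.54 to 1.32), Tlr6 (-0.195 to 1.15), Tlr7 (-0.41 to 1.57, with the set of reads taken) and Tlr13 (-0.0974 to 1.30). Scaling to the sum of recovered reads moved the median log2 fold change of all genes from -0.17 to 0.06 and that of Tlr3 to 0.15. The cause was not tested. No paired analysis was possible because the deposited table holds no values tied to the replicate numbers of the labels, so the replicate block was not run.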
